A study of Nothobranchius furzeri with 8 samples.

Results

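The mitotic genes tpx2, smc4 and rcc2 were followed in the brain of the turquoise killifish Nothobranchius furzeri. They are 3 of the 23546 genes in the deposited count table. They were taken by name from the genes that the study lists as changed between the groups compared here, so their differences between the groups are given as a description, and their calls in the test over all genes are no evidence of a difference. rcc2 (Nfu_g_1_015581) also stands among the study's predicted miR-29 targets, in its set of predicted targets that were lower in the transgenic fish. tpx2 (Nfu_g_1_015550) and smc4 (Nfu_g_1_000255) were identified by the symbol that the study pairs with them.

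RNA-seq was run on whole brain at 12 weeks of age, in 4 samples of the sponge-29 line and 4 of wild-type. Each sample is called a fish here. Sponge-29 fish (genotype kif5a::miR-29sponge) were F1 fish of a transgenic line in which a promoter fragment of the zebrafish kif5aa gene, a neuronal kinesin, drives a transcript of eGFP with binding sites for the microRNA miR-29, which takes the microRNA away from its targets. Wild-type fish were the control strain MZM-04/10p without the transgene. The sponge transcript and miR-29 were not analysed here, and the group of each fish rests on its label. Libraries are called by their number in the deposited table, 46 to 49 for sponge-29 and 42 to 45 for wild-type.

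Cells divide by copying their DNA, condensing each copied chromosome, and pulling the copies apart on a spindle of microtubules. The proteins that build the spindle and condense the chromosomes are made mainly in dividing cells, and mature neurons no longer divide. In teleost fish, progenitor cells, many of them radial glia, go on dividing in the adult brain and give rise to new neurons, so that transcripts of mitotic genes can be found in RNA of whole adult brain. TPX2 nucleates spindle microtubules and activates the kinase Aurora A, and in Xenopus and human cells it is held inactive by importin alpha until the GTPase Ran frees it. SMC4 pairs with SMC2 to form the core of condensin, the ring that compacts chromosomes. RCC2, known in human cells as TD-60, sits at the inner centromere in mitosis together with the chromosomal passenger proteins, among them INCENP.

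The number of reads counted on genes lay between 18014090 and 21081878 in sponge-29 and between 21665735 and 24902251 in wild-type, so that every sponge-29 library was the shallower. Levels are given as CPM, counts scaled to the TMM-adjusted library size, with the SD between the 4 fish where a mean is printed. The groups were compared in 19536 genes with enough counts by the quasi-likelihood test of edgeR, p-values were adjusted by Benjamini-Hochberg over all of them, and a gene was called where its adjusted p was below 0.05. By this rule 2341 genes (12%) were called, 1140 of them (5.84%) lower and 1201 (6.15%) higher in sponge-29. With each library's trend over gene length removed the split was 557 lower and 972 higher, and with scaling by total counts only it was 1428 lower and 886 higher. RNA of whole brain cannot tell fewer dividing cells apart from less RNA in each of them, and this holds for every value below.

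The level of tpx2 was 5.29, 7.35, 7.38 and 10.8 CPM in sponge-29 libraries 46 to 49, against 30.3, 19.8, 23.9 and 25.9 CPM in wild-type libraries 42 to 45. The groups stood far apart, and the lowest wild-type fish was 1.82-fold above the highest sponge-29 fish. The mean of tpx2 was 7.71 ± 2.30 CPM in sponge-29, against 24.99 ± 4.39 CPM for wild-type (SD, n = 4 each), a log2 fold change of -1.70 with a standard error of 0.21. Sponge-29 brains thus held 30.8% of the wild-type level. Of the 1140 genes called lower, 23 had a larger fall than tpx2. The values rest on 109 to 191 counts per library in sponge-29 and 475 to 669 in wild-type. Within sponge-29 the fish differed more in tpx2 than in smc4 or rcc2, with a coefficient of variation of 29.8%, against 17.6% in wild-type.

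The level of smc4 was 28.7, 26.9, 31.8 and 30.1 CPM in sponge-29, against 46.2, 41.2, 38.4 and 37.4 CPM in wild-type, in the same order of libraries. The groups did not overlap, with a gap of 1.18-fold between the highest sponge-29 fish and the lowest wild-type fish. The mean of smc4 was 29.4 ± 2.06 CPM in sponge-29, against 40.8 ± 3.95 CPM for wild-type (SD, n = 4 each), a log2 fold change of -0.47 with a standard error of 0.09, so that 72.0% of the wild-type level remained. It was the steadiest of the 3 genes between fish of a group, with coefficients of variation of 7.03% in sponge-29 and 9.67% in wild-type. The fall of smc4 was modest among the genes called lower, of which 480 fell more.

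The level of rcc2 was 27.6, 33.1, 35.2 and 38.3 CPM in sponge-29, against 56.3, 40.1, 57.2 and 58.1 CPM in wild-type. Of the wild-type fish, library 43 stood apart from the other 3 and came within 1.05-fold of the highest sponge-29 fish. The mean of rcc2 was 33.6 ± 4.49 CPM in sponge-29, against 52.9 ± 8.58 CPM for wild-type (SD, n = 4 each), a log2 fold change of -0.66 with a standard error of 0.14, or 63.4% of the wild-type level. Without library 43 the log2 fold change was -0.77, and that of tpx2, whose lowest wild-type value also came from library 43, was -1.80, against -0.47 for smc4. The same library held 94.6 CPM of ITGAM, an integrin of microglia and other myeloid cells, against 10.2 to 13.4 CPM in the other wild-type fish. The part of this difference in the level of rcc2 was not tested.

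**Figure D1:**
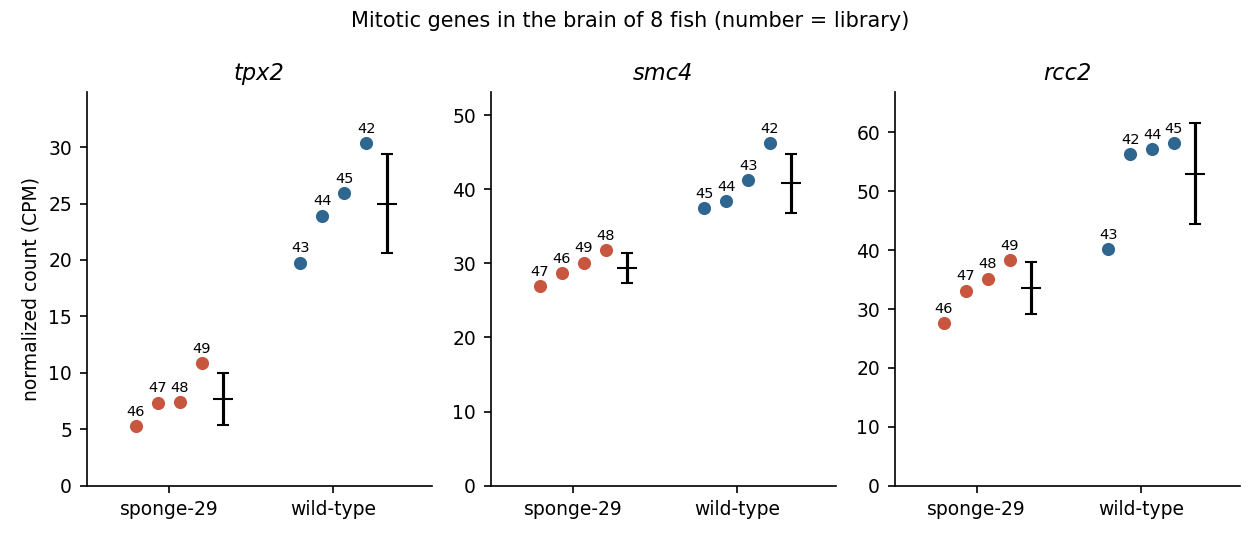
Level of tpx2, smc4 and rcc2 in CPM (vertical axes, each from 0) in each of the 4 sponge-29 fish (left of each panel) and the 4 wild-type fish (right), with the library number above each point and the group's mean ± SD as a bar beside the points. All 4 sponge-29 fish lie below all 4 wild-type fish for each gene, with the widest gap for tpx2 (1.82-fold) and the narrowest for rcc2 (1.05-fold), where wild-type library 43 lies at 40.1 CPM.

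All 3 genes were among those whose groups did not overlap in the lower direction, as were 10.5% of all genes tested, and all 3 were called lower, beside 5.84% of all genes. Nothing is read from these counts, since the genes were taken from the study's list of changed genes in these libraries. When each library was left out in turn, tpx2 was called in 8 of 8 fits, smc4 in 7 and rcc2 in 4. Of the 3 genes, 1 was called when sponge-29 library 47 was left out, and 2 when wild-type library 42, 44 or 45 was. Calls over all genes also fell in these fits, from 2341 to 441 of 19793 without library 47. They were 1153 of 19693 without library 42, 886 of 19713 without 44 and 427 of 19693 without 45. At a threshold of 0.01 edgeR's quasi-likelihood test called 0 of the 3, beside 0.0819% of all genes in either direction.

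Levels of different genes were compared by RPKM, which is scaled to gene length. Per length, rcc2 was the most abundant of the 3 in both groups, with 6.13 ± 0.8295 RPKM in sponge-29 and 9.88 ± 1.57 RPKM in wild-type. smc4 followed with 4.04 ± 0.302 RPKM in sponge-29 and 5.75 ± 0.596 RPKM in wild-type. The RPKM of tpx2 was 1.68 ± 0.494 in sponge-29 and 5.57 ± 0.987 in wild-type (SD, n = 4 each for all values). In wild-type brains smc4, with 5.21 to 6.55 RPKM, and tpx2, with 4.43 to 6.81 RPKM, overlapped, while rcc2, with 7.53 to 10.7 RPKM, lay above both. In sponge-29 brains the order was the same but tpx2, with 1.14 to 2.34 RPKM, lay below smc4, with 3.73 to 4.44 RPKM, in every fish.

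Against all genes tested, these are middling to low levels for whole brain. The share of genes at or below tpx2 was 15.3% to 25.1% in sponge-29 fish and 35.5% to 48.3% in wild-type fish. For smc4 this share was 33.7% to 37.4% in sponge-29 and 41.7% to 46.99% in wild-type, and for rcc2 it was 41.3% to 50.4% in sponge-29 and 50.2% to 62.3% in wild-type. The larger fold change of tpx2 also appears in its ratios to smc4 and rcc2 within a library. The RPKM ratio of tpx2 to smc4 was 0.292 to 0.571 in sponge-29, against 0.760 to 1.098 in wild-type, and that of tpx2 to rcc2 was 0.228 to 0.338 in sponge-29, against 0.500 to 0.643 in wild-type. Neither ratio overlapped between the groups. The ratio of smc4 to rcc2 did, with 0.592 to 0.782 in sponge-29 and 0.485 to 0.774 in wild-type.

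The other genes of mitosis could be followed only where the study's lists of changed genes pair an identifier with a symbol, so those found were chosen on these libraries and give no independent evidence of a direction. With tpx2, smc4 and rcc2, these lists name 32 identifiers among the mitotic and replication genes looked for. Of the 32, 28 were lower and 4 higher in sponge-29, 20 were called lower and 3 higher, and 9 were not called, beside 5.84% and 6.15% of all genes called in each direction. Their median log2 fold change was -0.58, against -0.01 over all genes tested, and their median length was 4689 bases, against 2654 over all genes. With the length trend removed, 16 were called lower and 3 higher, beside 2.85% of all genes called lower. The count called lower was 6 when sponge-29 library 47 was left out, 12 when wild-type library 42 was, and 9 when wild-type library 45 was. Over all genes, 202, 590 and 209 were called lower in the same fits, against 1140 with all libraries. Summed over the 32 identifiers, the level was 508, 547, 601 and 591 CPM in sponge-29 libraries 46 to 49, against 932, 820, 782 and 881 CPM in wild-type libraries 42 to 45, so the sums did not overlap.

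Among genes of the spindle and its midzone, 8 of 8 were lower and 7 were called, beside 5.84% of all genes. With the length trend removed 4 of 8 were called lower, beside 2.85% of all genes, and ect2, prc1b and CEP192 were not among them. tpx2 had the largest fall, close to that of aspm, whose product holds the spindle poles together and is needed for the growth of the vertebrate brain. The level of aspm was 6.45, 9.36, 9.40 and 8.51 CPM in sponge-29, against 34.3, 22.1, 18.6 and 32.7 CPM in wild-type, a log2 fold change of -1.67 with a standard error of 0.22. Per length, the ratio of tpx2 to aspm was 1.96 to 3.18 in sponge-29 and 1.98 to 3.20 in wild-type, and these ratios overlapped. The log2 fold change was -1.51 for tacc3, a microtubule-binding substrate of Aurora A, and -1.04 for kif11, the kinesin that pushes the spindle poles apart. ect2 and prc1b, which act at the midzone in cytokinesis, were lower by less, at -0.69 and -0.60, and CEP192, a centrosome protein, was at -0.38. IQGAP3 was not called, at -0.51.

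smc4 was seen together with its partner and with the genes of sister chromatid cohesion. In this group 7 of 7 identifiers were called lower, beside 5.84% of all genes. With the length trend removed 6 of 7 were, beside 2.85% of all genes. smc2 had 4.85, 7.10, 6.07 and 7.89 CPM in sponge-29, against 11.5, 11.7, 9.95 and 12.5 CPM in wild-type, with a log2 fold change of -0.82 and a standard error of 0.16. Per length, smc4 was the more abundant of the pair in every fish, 2.19 to 3.41 times in sponge-29 and 1.72 to 2.31 times in wild-type, and these ratios overlapped. MKI67, the Ki-67 protein that coats mitotic chromosomes and is a common marker of proliferation, had 11.5, 19.1, 20.7 and 28.8 CPM in sponge-29, against 48.8, 56.7, 35.3 and 44.6 CPM in wild-type, a log2 fold change of -1.21. ESPL1, the separase that cuts cohesin, was at -0.63. nipblb, which loads cohesin, and both WAPAL identifiers, which release it, lay between -0.59 and -0.47, and cohesin also acts outside mitosis.

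rcc2 was grouped with genes of the kinetochore and its checkpoint, where 3 of 7 were called lower, 1 higher and 3 were not called. Over all genes 5.84% were called lower and 6.15% higher. INCENP, the passenger protein, had 18.8, 23.3, 22.7 and 29.6 CPM in sponge-29, against 44.4, 29.2, 30.3 and 36.2 CPM in wild-type. The groups of INCENP overlapped, and its log2 fold change of -0.57 with a standard error of 0.17 did not pass the threshold. Per length, rcc2 was 0.845 to 1.01 times INCENP in sponge-29 and 0.826 to 1.23 times in wild-type. CENPE, the kinesin that carries chromosomes along the spindle, and cenpf, a kinetochore protein, were lower at -0.95 and -1.25. casc5 and kntc1 were not called, at -0.54 and -0.42. MIS12, a structural protein of the kinetochore, was higher in sponge-29 at 0.41.

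Genes of entry into and exit from mitosis moved in both directions. Of 6 identifiers, 3 were called lower and 2 higher, beside 5.84% and 6.15% of all genes. plk1, a kinase needed throughout mitosis, had 6.50, 6.89, 10.2 and 11.2 CPM in sponge-29, against 22.9, 16.2, 12.6 and 17.1 CPM in wild-type, a log2 fold change of -0.99 with a standard error of 0.23. cdc25, the phosphatase that switches on the mitotic kinase, and CDCA4 were also called lower, at -0.72 and -0.44, and mybl2 was not called, at -0.73. anapc16 and cdc26, small subunits of the anaphase-promoting complex, were called higher, at 0.54 and 0.40.

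None of the 4 identifiers found among the replication genes was called by edgeR's quasi-likelihood test. At an unadjusted p below 0.05 there were 3 lower and 1 higher, beside 31.2% of all genes in either direction, and as genes taken from lists of changed genes they were bound to have small p-values. The likelihood ratio test called 1 of the 4 (higher), beside 4.86% of all genes called higher. limma voom called 2 lower and 1 higher, beside 7.78% of all genes lower and 8.01% higher, and DESeq2 called 3 lower and 1 higher, beside 9.95% lower and 9.46% higher. mcm4, part of the helicase that opens DNA for copying, had 6.60, 8.07, 9.40 and 11.7 CPM in sponge-29, against 14.96, 12.4, 12.3 and 13.4 CPM in wild-type, a log2 fold change of -0.57. LIG1 and rpa1 were both at -0.48, and POLD4 was at 0.61.

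**Figure D2:**
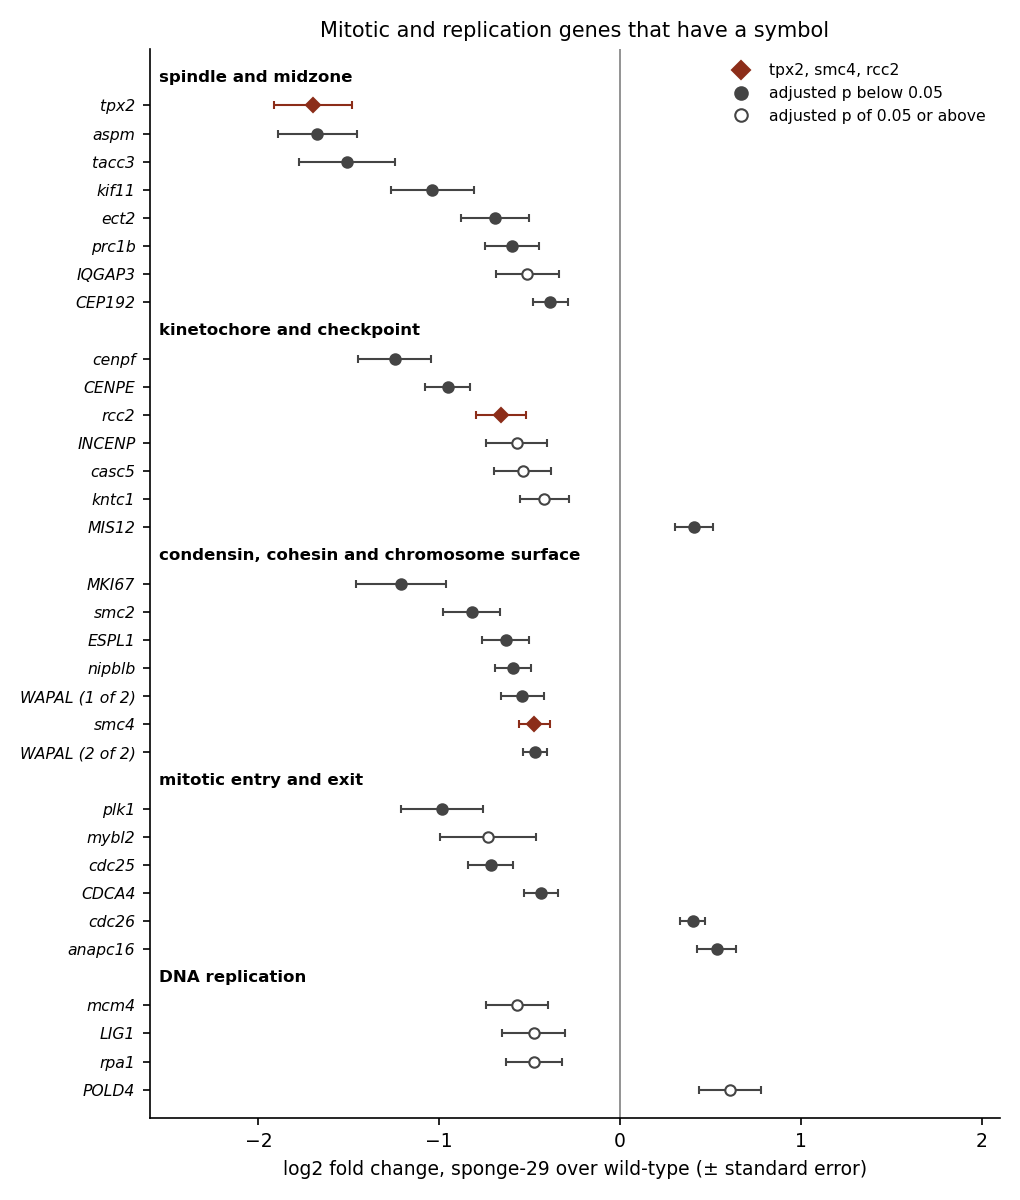
Log2 fold change of sponge-29 over wild-type (horizontal axis) ± standard error for the 32 mitotic and replication identifiers, grouped by role. Diamonds mark tpx2, smc4 and rcc2, filled circles an adjusted p below 0.05 and open circles one of 0.05 or above. 28 of the 32 lie left of 0, from tpx2 at -1.70 to CEP192 at -0.38, and the 4 to the right are MIS12, cdc26, anapc16 and POLD4.

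Genes of nuclear import and Ran, among them the importin alpha that holds TPX2 and the Ran that frees it, did not all move one way. kpna2, the importin alpha that binds TPX2, had 10.6, 16.9, 15.5 and 17.8 CPM in sponge-29, against 47.1, 45.7, 27.2 and 34.2 CPM in wild-type, a log2 fold change of -1.34 with a standard error of 0.21. The RPKM ratio of tpx2 to kpna2 was 0.205 to 0.286 in sponge-29 and 0.204 to 0.415 in wild-type, so it overlapped between the groups. tnpo2, ahctf1 and NUP153, an import receptor and parts of the nuclear pore, were called lower at -0.64, -0.40 and -0.38. Of the 5 identifiers found, 4 were called lower and 1 higher, beside 5.84% and 6.15% of all genes. All 5 come from the study's lists of changed genes. ran was called higher, at 0.36, with 253 to 321 CPM in sponge-29, against 201 to 237 CPM in wild-type, and was not called with the length trend removed.

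Genes that slow or stop the cell cycle stood on the other side. All 10 identifiers found were higher in sponge-29 and 9 were called, beside 6.15% of all genes called higher. These too come from the study's lists of changed genes. cdkn1a, the p21 inhibitor of cyclin-dependent kinases, had 17.0, 13.5, 13.3 and 14.2 CPM in sponge-29, against 8.98, 8.16, 4.98 and 8.36 CPM in wild-type, a log2 fold change of 0.93. The stress-induced genes gadd45g and gadd45ba had the largest rises, at 1.57 and 1.21. Both identifiers of hbp1, a repressor of cell cycle genes, were at 0.93 and 0.91, called in 2 and 8 of the 8 fits with a library left out. The study also names HBP1 among its predicted miR-29 targets that were higher in the transgenic fish. sesn1 was not called, at 0.66. The count called higher was 5 when sponge-29 library 46 was left out, and 4 when sponge-29 library 47 was. It was 5 when wild-type library 42 or 44 was left out, and 3 when wild-type library 45 was. Over all genes, 685, 239, 563, 456 and 218 were called higher without library 46, 47, 42, 44 and 45, against 1201 with all libraries.

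Markers of other cells of the brain were found through the same lists of changed genes, so that their calls and the gaps between their sums were largely fixed by that choice. They are read against 5.84% of all genes called lower and 6.15% called higher, or 2.85% and 4.98% with the length trend removed. Of 6 radial glia and progenitor markers, 3 were called lower (2 with the length trend removed) and 1 higher, and their summed level was 157 to 183 CPM in sponge-29, against 199 to 230 CPM in wild-type. notch1b, a receptor that keeps progenitors undifferentiated, had 41.95, 40.0, 44.7 and 41.5 CPM in sponge-29, against 61.6, 59.2, 62.4 and 62.7 CPM in wild-type. ezh2, a histone methyltransferase of dividing progenitors, was called lower at -0.86, and sox9a, a glial transcription factor, was called higher at 0.58. Of 5 markers of young neurons 4 were called higher, with sums of 808 to 1107 CPM in sponge-29, against 589 to 655 CPM in wild-type. The other, ebf3, was lower at -0.58 with groups that did not overlap, and was not called. neurod, a transcription factor of neurons, was called higher at 1.21, with 501, 337, 239 and 393 CPM in sponge-29, against 196, 174, 152 and 115 CPM in wild-type. The other large part of these sums was stmn2a, with 381 to 438 CPM in sponge-29, against 260 to 341 CPM in wild-type. Whether the genes listed as young neuron markers are confined to young neurons was not tested, so their sum is no count of new neurons.

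The remaining marker lists differed from each other in direction. The 6 vascular identifiers summed to 125 to 166 CPM in sponge-29, against 176 to 241 CPM in wild-type. Of these identifiers, 4 were called lower, or 2 with the length trend removed. ESM1 was higher at 0.43 with groups that did not overlap, and was not called. The 3 oligodendrocyte markers summed to 100 to 123 CPM in sponge-29, against 74.4 to 86.6 CPM in wild-type, and all 3 were called higher, or 1 with the length trend removed. Sums overlapped for the 7 mature neuron markers (911 to 1019 CPM in sponge-29, against 919 to 1098 CPM in wild-type), of which 3 were called lower and 2 higher. They also overlapped for the 4 markers of microglia and other immune cells (53.1 to 70.9 CPM in sponge-29, 48.6 to 142 CPM in wild-type), of which 2 were called higher. No marker was at 0 in any library. The part of any of these cell types in the levels of tpx2, smc4 and rcc2 was not tested.

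**Figure D3:**
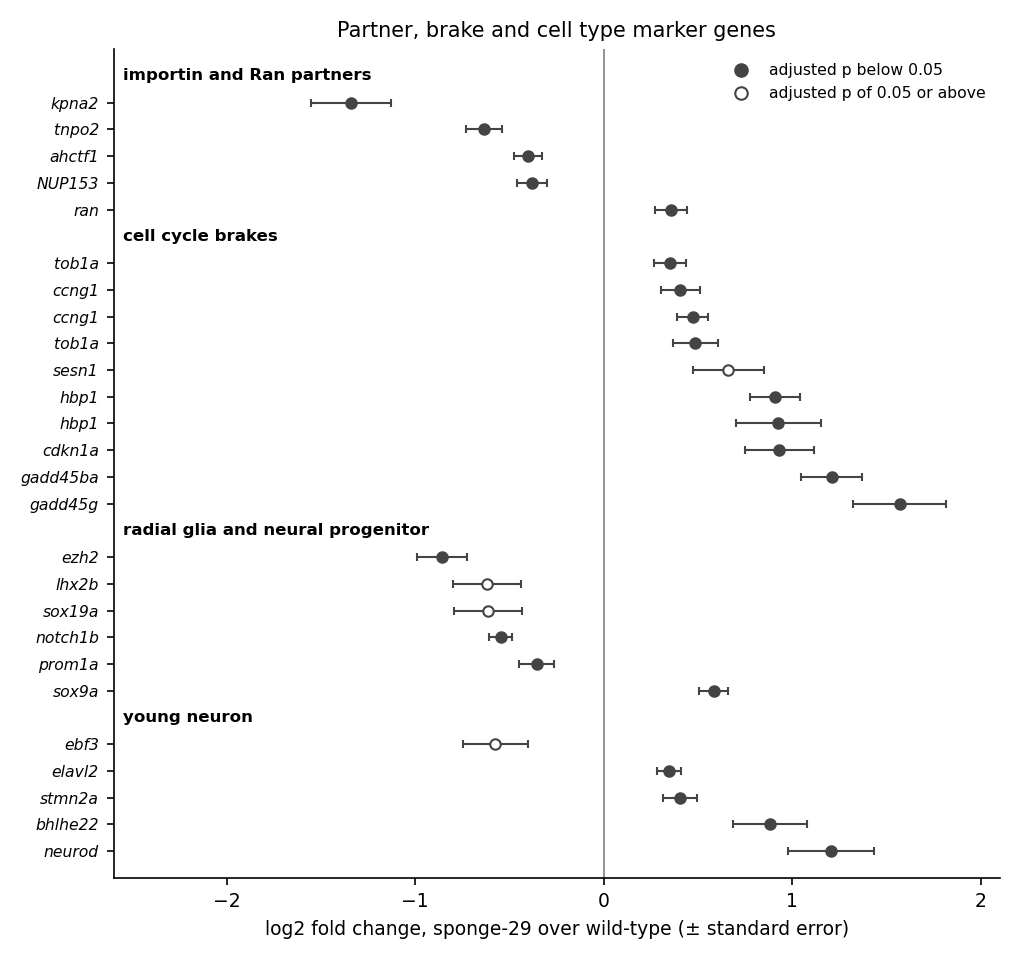
Log2 fold change of sponge-29 over wild-type (horizontal axis) ± standard error for genes of nuclear import and Ran, brakes of the cell cycle, and markers of progenitors and of young neurons. Filled circles mark an adjusted p below 0.05 and open circles one of 0.05 or above. kpna2 lies at -1.34 and ran at 0.36, and all 10 brake identifiers lie right of 0. sox9a is the 1 progenitor marker to the right, and ebf3 the 1 young neuron marker to the left.

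The members were also compared for how they varied between fish of the same group. The study's test sets the group difference against the spread between fish, so that spread also had a part in the choice of genes. Each log2 CPM was taken as its deviation from the mean of its own group, and Pearson's r was computed over the 8 fish as a description. tpx2 and rcc2 deviated together, with r = 0.83 (Spearman's rho 0.79), and r lay between 0.74 and 0.88 when each library was left out. Both were lowest within sponge-29 in library 46 (-0.49 for tpx2 and -0.27 for rcc2) and highest there in library 49 (0.53 and 0.20), and both were lowest within wild-type in library 43 (-0.32 and -0.38). Among 18371 genes with a mean of at least 1 CPM, rcc2 ranked 493 by its r with tpx2. For smc4, r was 0.32 with tpx2 (0.05 to 0.42 with a library left out, and 0.48 with the length trend removed) and 0.06 with rcc2 (-0.14 to 0.24). Whether these values of r differ from each other was not tested. smc4 was highest in library 48 within sponge-29 and in library 42 within wild-type. The points share library depth and scaling, so r over 8 fish is no measure of shared control.

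Over the other 31 mitotic and replication identifiers, 26 had r above 0 with tpx2 (median 0.58), 28 with smc4 (median 0.38) and 25 with rcc2 (median 0.35). Over all genes, the share with r above 0 was 49.04% for tpx2, 50.8% for smc4 and 50.3% for rcc2. The listed identifiers come from the study's lists of changed genes, while the background of all genes was not chosen so. The same lists also gave the 6 vascular identifiers, and 6 of them had r above 0 with tpx2 (median 0.51). With smc4 3 of the 6 had (median -0.04), and with rcc2 6 had (median 0.73). Of the 3 oligodendrocyte identifiers, 0 had r above 0 with tpx2 or rcc2. Positive r with tpx2 and rcc2 was thus not particular to the mitotic lists. INCENP and mcm4 were closest to tpx2 within the mitotic and replication lists, each with r = 0.94. There plk1 was closest to smc4, with r = 0.77, and tpx2 and cenpf to rcc2, with 0.83 and 0.79. None of the 10 brake identifiers had r above 0 with tpx2 (median -0.46) or with rcc2 (median -0.70), and 2 had with smc4 (median -0.11). Of the 5 importin and Ran identifiers, 1 had r above 0 with tpx2 (median -0.46). It was kpna2, the importin that binds TPX2, with r = 0.53, while ahctf1 and ran had -0.91 and -0.83. The spindle gene aspm had r = 0.58 with tpx2.

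Among genes with a symbol, the 5 most like each member across the 8 fish were for the most part not on the mitotic lists. For tpx2 these were MPC1 and acot7, each with r = 0.98, and INCENP, rcn1 and mcm4, each with 0.94. MPC1, a carrier of pyruvate into mitochondria, was higher in sponge-29 by 0.41 on the log2 scale and acot7, an acyl-CoA thioesterase, by 0.52, so fish of a group that were high in these genes were high in tpx2, although the groups differed in opposite directions. For smc4 these were CABZ01034082.1 (0.94), lbr and adck3 (0.86 each), C10H11orf30 (0.84) and creb1a (0.83). lbr, a receptor for lamin B in the nuclear envelope, was lower in sponge-29 by -0.55 on the log2 scale. For rcc2 they were fam53b (0.98), rcn3 (0.96), si:ch211-161m3.4 (0.92), ESM1 and cox15 (0.91 each). Over all 18371 genes, r was above 0.9 for 163 genes with tpx2, 22 with smc4 and 166 with rcc2. Among these 18371 the named genes ranked 4 to 56 for tpx2, 7 to 130 for smc4 and 4 to 124 for rcc2. Symbols come only from the study's lists of changed genes and most genes of mitosis have none, so most of them could not appear here.

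**Figure D4:**
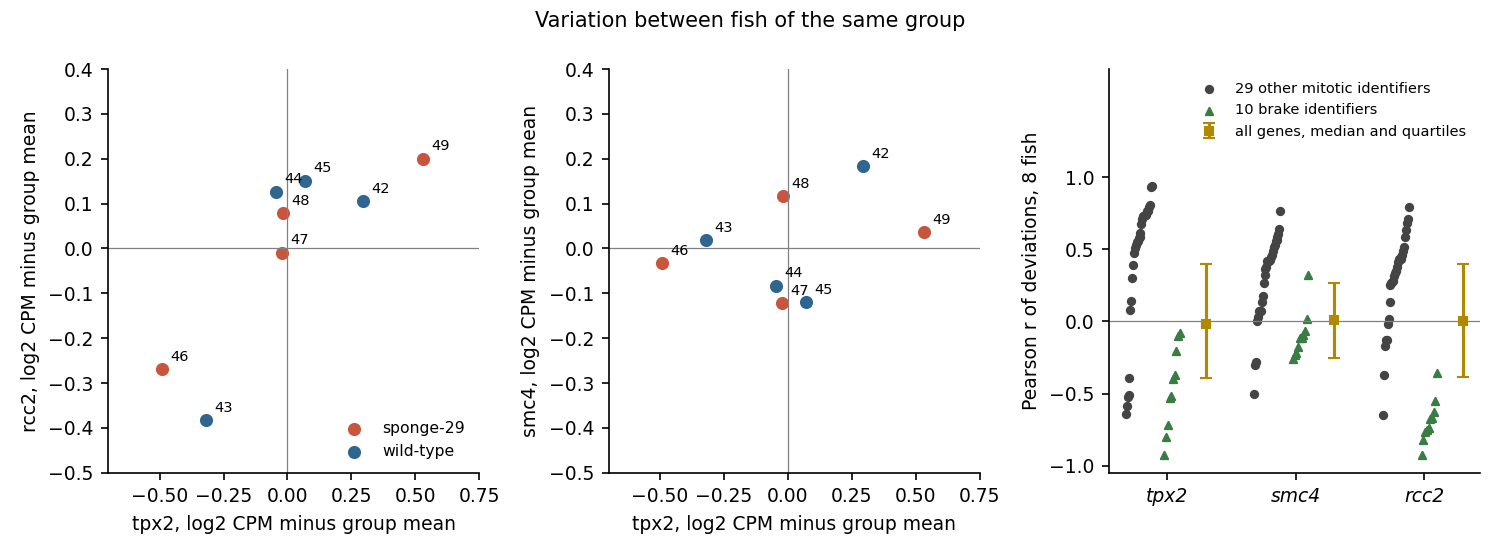
Deviation of log2 CPM from the mean of the fish's own group for tpx2 against rcc2 (left) and against smc4 (middle), with library numbers beside the points, and Pearson's r over the 8 fish with each of the 3 genes (right) for 29 other mitotic identifiers, for 10 brake identifiers, and as median and quartiles for all genes. tpx2 and rcc2 deviate together (r = 0.83), tpx2 and smc4 do so weakly (r = 0.32), and all brake identifiers lie below 0 for tpx2 and rcc2.

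The 29 other mitotic identifiers were also summarised in each fish. Their median deviation was -0.34, -0.02, 0.14 and 0.15 in sponge-29 libraries 46 to 49, and 0.10, 0.01, -0.16 and 0.03 in wild-type libraries 42 to 45. Within sponge-29 this is the order of tpx2 and of rcc2, but it rests on near ties. Libraries 47 and 48 had 7.35 and 7.38 CPM of tpx2, and the medians of libraries 48 and 49 were almost equal. Library 46 was low for most of these genes, with 6 of the 29 above the group's mean. Wild-type library 43, lowest for tpx2 and rcc2, was near the group's mean for the others, and library 44 was the low one there, with 5 of the 29 above the mean, while library 42 was the highest in the median and library 45 next to it, as in tpx2.

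In the RefSeq annotation of assembly NfurGRZ-RIMD1, where each of the 3 symbols matched 1 entry, tpx2 and rcc2 lie on the same chromosome with 4 genes between them, and smc4 lies on another. Of the genes between, 1 has a symbol that the study pairs with an identifier, phc2a, a subunit of a Polycomb complex. That symbol comes from the study's lists of changed genes, so the difference of phc2a is only a description. The other genes between were not followed. The mean of phc2a was 23.4 ± 2.12 CPM in sponge-29, against 31.3 ± 3.05 CPM for wild-type (SD, n = 4 each), a log2 fold change of -0.42 with a standard error of 0.10.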

How the data were processed

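Whole brain RNA of 8 samples was prepared by the authors with the TruSeq RNA kit v2 of Illumina and sequenced as single reads. Reads were mapped with TopHat2 2.0.6 and counted on genes with featureCounts 1.4.3-p1, per the submitters' processing notes. The authors deposited raw counts per gene and RPKM values, scaled to gene length and depth. The strand and multi-mapping settings are not given in the sources used here. The study describes 4 biological replicates for its experimental group. Whether each sample came from a single fish is not spelled out there or in the labels. The p-values set the group difference against the spread between these samples only. Columns of the authors' own comparisons, which hold fold changes and p-values, were not used, and only the identifier and symbol columns of the study's lists were read, which pair 1418 identifiers with a symbol.

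Counts were analysed with R 4.3.3 and edgeR 4.0.16 (TMM scaling, filterByExpr with a minimum count of 10, quasi-likelihood F-test). CPM are TMM-scaled, and a prior count of 2 was added for log2 CPM. Between 18014090 and 24902251 counts per library leave genes with few counts imprecise. On simulated counts of 19399 genes, 200 of them changed by a log2 fold change of 1 between sponge-29 and wild-type, the test recovered 104 with 6 false calls. On the same counts limma voom recovered 106 with 5 false calls. The likelihood ratio test recovered 135 with 32 false calls and DESeq2 136 with 43, so calls by these 2 tests are less strict. The 3 genes and the lists were chosen with earlier results of these data known. Named were the 3 genes, list members that have a symbol, and for each gene the 5 symbols with the largest r. Of the gene lists, 8 of 29 spindle symbols, 7 of 28 kinetochore, 6 of 22 condensin and cohesin, 6 of 22 entry and exit, 4 of 31 replication, 5 of 11 importin and Ran and 7 of 16 brake symbols were found. Among marker symbols, 6 of 15 radial glia, 5 of 10 young neuron, 7 of 8 mature neuron, 3 of 7 oligodendrocyte, 4 of 9 immune, 5 of 9 vascular and 0 of 5 red blood cell symbols were found. Alternatives were other scalings, filters, thresholds and tests (DESeq2 1.42.0, limma 3.58.1), RPKM, thinned counts, removal of the trend with gene length (spline with 4 degrees of freedom) and each library left out. Figures were drawn with matplotlib 3.10.9.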

Additional observations from a re-analysis of the deposited data

Results flagged for a closer look

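Single fish that stood apart from the other 3 of their group were looked for by Dixon's test in 156 groups, 2 for each of 78 identifiers, and 9 were found. Chance flags about 1 in 20 such groups. In wild-type library 43, rcc2 had 40.1 CPM, against 56.3 to 58.1 CPM in the other 3 fish. The same library was high in ITGAM, with 94.6 CPM against 10.2 to 13.4 CPM, and low in lhx2b, a transcription factor of progenitors, with 14.3 CPM against 18.8 to 19.7 CPM. In sponge-29 library 46, 3 mitotic genes were low. There cenpf had 13.3 CPM against 19.6 to 19.7 CPM, kif11 had 6.98 CPM against 13.5 to 14.5 CPM, and prc1b had 7.95 CPM against 10.8 to 11.1 CPM. In sponge-29 library 48 both identifiers of ccng1, a cyclin induced by p53, were low, with 652 CPM against 758 to 763 CPM and with 406 CPM against 475 to 484 CPM, and the second WAPAL identifier was high, with 34.3 CPM against 29.4 to 30.1 CPM.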

How the results depend on the processing

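The log2 fold changes of tpx2, smc4 and rcc2 kept their sign under every alternative run. With each library left out they ranged from -1.91 to -1.56 for tpx2, from -0.52 to -0.41 for smc4 and from -0.77 to -0.58 for rcc2, and only on log2(RPKM + 1), where tpx2 was at -1.30, did a value move by more than the spread between fish. The number of genes called was 3791 by DESeq2, 1529 with the length trend removed, 16 at a threshold of 0.01, and 427 to 2125 with a library left out. Of the 32 mitotic and replication identifiers, 6 to 20 were called lower with a library left out and 0 at a threshold of 0.01. Over the 29 without tpx2, smc4 and rcc2, edgeR's quasi-likelihood test gave 25 lower and 4 higher at an unadjusted p below 0.05 (15.4% and 15.8% of all genes). At 0.01 the likelihood ratio test called 11 lower and 0 higher (2.1% and 1.93%), DESeq2 18 and 2 (5.61% and 5.34%) and limma voom 7 and 0 (0.957% and 0.952%), all of identifiers from lists of changed genes. The r of smc4 and rcc2 ranged from -0.14 to 0.24 with a library left out and changed sign without library 46, 48, 49 or 42, where it was -0.01, -0.02, -0.001 and -0.14. The cause of these changes was not tested. Another 35 genes were followed in this way, the 29 identifiers with kpna2, ran, cdkn1a, gadd45g, notch1b and neurod. Their directions turned under no alternative. In 60 of 280 fits with a library left out a call was lost, in 17 of the genes. The 29 held 9 not called with all libraries, in which no call could be lost. ect2 was called in 1 of 8 such fits, MIS12 in 2, and prc1b and CEP192 in 3. Other brake, import and marker genes were not among the 35. Of those called, prom1a, col4a1 and SOX8 were called in 1 of 8 such fits, and ezh2, sox9a and slco1c1 in 8. No paired analysis was possible because the replicate numbers only follow the order of the samples and pair no fish. Of the genes of mitosis, most have no symbol here and were not analysed.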
